A study of Mus musculus with 10 samples.

Results

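The Hedgehog pathway genes described here are the ligands Shh and Ihh, the receptor Ptch1, the signal transducer Smo, the coreceptors Boc, Cdon and Gas1, and the transcription factors Gli1, Gli2 and Gli3. They were chosen by gene symbol, as core components of the pathway, with earlier results of these data known. All 10 were found among the 52636 mouse Ensembl gene identifiers of the count tables. Of these, 8 had enough reads to enter the test, among 16005 tested genes. RNA-seq was made from E14 cells, a line of mouse embryonic stem cells, 2 WT libraries and 2 libraries labelled CBE-KO, in which a CTCF binding element (CBE) near enhancers that contact the HoxA genes is lost. Before treatment the cells were kept on gelatin in serum medium with LIF and the inhibitors PD0325901 and CHIR99021, which hold them in self-renewal. All 4 RNA-seq libraries came from cells moved to medium without LIF and the inhibitors and given 2 µM retinoic acid for 24 h, so no untreated cells enter the comparison. The sources used here do not say how the CBE-KO cells were made or whether they are 1 clone. The series also lists 6 Capture-C libraries, which are not analysed here.

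Hedgehog ligands are secreted proteins that bind the membrane protein Patched. Unbound Patched keeps Smoothened, the product of Smo, inactive, and ligand binding releases Smoothened at the primary cilium, which then changes how the Gli factors are processed. Gli2 is the main activator that receives the signal, Gli3 acts largely as a cleaved repressor when no ligand is present, and Gli1 is itself induced by the pathway. Ptch1 and Hhip are also induced and limit the signal. In the embryo the pathway patterns the ventral neural tube and the limb, where retinoic acid is a second patterning signal.

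Promoter sequences were taken from RefSeq (GRCm38.p6, the same assembly as mm10, the build in the submitters' processing notes), which had a window for 7 of the 10 genes. The 250 bases before the annotated start are shown, 5′ to 3′, for the pair of genes with the largest rises reported below, Gas1 and Ptch1, and for Gli2, the gene that fell. The Ptch1, Gli2 and Cdon windows lie inside the annotated span of the gene, so they precede an internal start and not the one furthest upstream. Capitals mark the GC box GGGCGG on either strand.

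Ptch1, chr13:63565736-63565985, minus strand: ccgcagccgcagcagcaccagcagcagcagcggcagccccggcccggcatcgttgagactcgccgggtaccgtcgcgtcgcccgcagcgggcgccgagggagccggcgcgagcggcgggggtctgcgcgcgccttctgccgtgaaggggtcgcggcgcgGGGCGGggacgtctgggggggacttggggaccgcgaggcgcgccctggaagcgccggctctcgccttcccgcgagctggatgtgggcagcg

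Gas1, chr13:60177536-60177785, minus strand: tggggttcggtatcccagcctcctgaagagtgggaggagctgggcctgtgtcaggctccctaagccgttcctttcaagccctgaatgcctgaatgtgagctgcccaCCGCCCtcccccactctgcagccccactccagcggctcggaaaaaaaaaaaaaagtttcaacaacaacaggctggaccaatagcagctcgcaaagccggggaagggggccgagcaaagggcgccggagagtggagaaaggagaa

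Gli2, chr1:119053620-119053869, minus strand: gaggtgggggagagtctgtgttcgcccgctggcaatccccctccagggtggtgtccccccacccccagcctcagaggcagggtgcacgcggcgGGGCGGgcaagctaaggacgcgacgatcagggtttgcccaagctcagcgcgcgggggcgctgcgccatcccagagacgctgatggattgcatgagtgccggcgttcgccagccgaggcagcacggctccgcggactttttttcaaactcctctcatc

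These windows had 78.4% G and C for Ptch1, 58.8% for Gas1 and 67.2% for Gli2, against a median of 52.4% over 32851 RefSeq promoter windows of the same length. CpG dinucleotides numbered 41, 10 and 22, against a median of 6. The window of Cdon, before an internal start, had 42.8% G and C and 1 CpG, the lowest of the 7. A GC box was present in 5 of the 7 windows (Ihh, Ptch1, Gli2, Gli3 and Gas1) and in 32.7% of all windows. The Gli-binding sequence GACCACCCA was found on neither strand in any of the 7, and in 0.225% of all windows. AGGTCA, a half-site of retinoid receptors and not their full element, was likewise found in 0 of 7, and in 14% of all. The CCAAT box, CCAAT, was in the Gas1 window alone among the 7 and in 33.8% of all, and TATAAA was in 0 of 7 and in 12.4% of all. No matches of different motifs overlapped in these 7 windows. Such matches describe the letters of these windows and say nothing of binding there or elsewhere.

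The 4 libraries held 14108038 to 15632960 counts, and 3 counts, taken as the floor of measurement, corresponded to 0.185 to 0.218 CPM (counts scaled to library size with edgeR's TMM factors). Replicates differed by more than sampling noise and were kept as separate samples. Mitochondrial genes took 1.86% to 2.00% of counts. The groups also differed on the Y chromosome: Ddx3y, Eif2s3y, Kdm5d and Uty summed to 0.727 and 0.821 CPM in WT and to 129 and 130 CPM in CBE-KO, and the part of this difference in the results below was not tested. Among the embryonic stem cell markers, the WT and CBE-KO means were 1028 and 816 CPM for Pou5f1 and 808 and 896 CPM for Nanog, so both were plentiful in both groups.

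Of all tested genes, 43.1% passed edgeR's quasi-likelihood test of CBE-KO against WT (adjusted p below 0.05), 21.6% higher and 21.5% lower in CBE-KO. Scaled by library totals alone, 67.0% of called genes were higher in place of 50.2%, and the median over all genes moved to 0.11 on the log2 scale. Of the Hedgehog genes, all 8 that were tested passed, 7 higher and 1 lower, with a median log2 change of 0.89 against 0.01 for all tested genes. Because the genes were chosen with earlier results of these data known, this contrast is a description and not a test. Both CBE-KO libraries lay on the same side of both WT libraries for these 8, as they did for 70.4% of tested genes. None of the 8 entered the test through 1 group alone, since the lowest count was 85, that of Boc in WT replicate 1. Counts come from bulk RNA, in which more cells of a type and more RNA per cell cannot be told apart.

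The ligands were at or near the floor in every library. Shh (ENSMUSG00000002633) had 2 and 0 counts in the WT libraries against 2 and 7 in CBE-KO. The groups overlapped, and 1 CBE-KO library was the only one above 3 counts. Ihh (ENSMUSG00000006538) had 3 and 2 counts in the WT libraries against 5 and 5 in CBE-KO, so the CBE-KO libraries were higher, by 2 to 3 counts. Neither gene entered the test. The ratio of summed counts, CBE-KO over WT, was 4.15 for Shh (95% interval 0.858 to 39.4) and 1.84 for Ihh (0.574 to 6.87), exact Clopper-Pearson intervals that cover counting error only and include 1. When no filter on low counts was applied, the edgeR adjusted p was 0.386 for Shh and 0.6865 for Ihh. A change in either ligand was not detectable at this depth.

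Ptch1, the receptor and a target of the pathway, had the second largest rise. Ptch1 (ENSMUSG00000021466) was at 41.2 and 46.0 CPM in the WT libraries and at 122 and 126 CPM in the CBE-KO libraries. The groups were far apart, 43.6 ± 3.41 against 124 ± 2.81 CPM (SD, n = 2 each). Its log2 change was 1.51 ± 0.06 (SE, edgeR adjusted p = 7.99e-12), a 2.84-fold rise. It stayed called under all 11 alternative settings, at log2 fold changes of 1.43 to 1.61.

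Smo, which encodes the transducer that Patched holds in check, rose less. Smo (ENSMUSG00000001761) was at 40.0 and 36.9 CPM in WT and at 55.3 and 57.1 CPM in CBE-KO. Both CBE-KO libraries were higher than both WT libraries, and the groups averaged 38.5 ± 2.15 and 56.2 ± 1.26 CPM (SD, n = 2 each). The log2 change was 0.55 ± 0.07 (SE, edgeR adjusted p = 1.12e-05), a 1.46-fold rise.

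**Figure D1:**
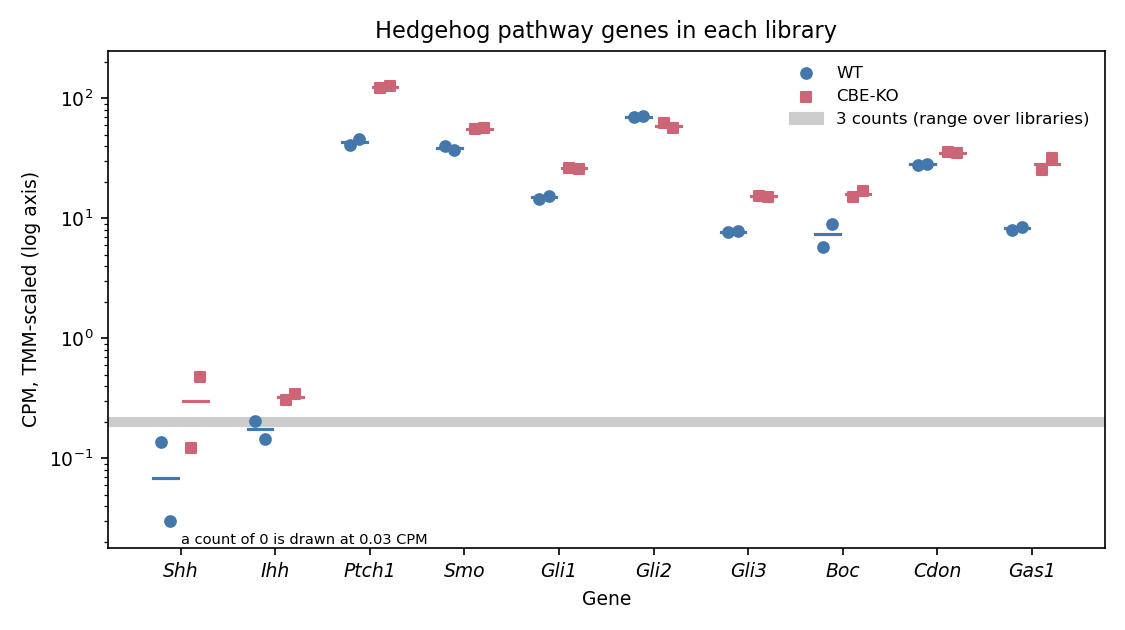
TMM-scaled CPM of the 10 Hedgehog genes on a log axis, with 1 point per library (WT circles, CBE-KO squares), a line at each group's mean and a grey band at 3 counts. The 0 of Shh in WT replicate 2 is drawn at the bottom of the axis. Shh and Ihh, which were not tested, lie around the band, with Ihh higher in both CBE-KO libraries. Of the 8 tested genes, 7 are higher in both CBE-KO libraries. Gli2 is lower, at 62.2 and 56.8 CPM against 69.7 and 70.9 in WT.

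All 3 coreceptors, membrane proteins that bind Hedgehog ligand together with Patched, rose. Gas1 (ENSMUSG00000052957), a membrane-anchored protein, had the largest change of the 8. Its levels were 8.08 and 8.51 CPM in WT and 25.4 and 32.0 CPM in CBE-KO. The CBE-KO libraries differed more from each other than the WT libraries did, yet both lay well above WT, at means of 8.29 ± 0.304 and 28.7 ± 4.70 CPM (SD, n = 2 each). The log2 change was 1.79 ± 0.13 (SE, edgeR adjusted p = 1.10e-08), a 3.45-fold rise.

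Boc (ENSMUSG00000022687), an immunoglobulin-family coreceptor, was at 5.82 and 8.94 CPM in WT and at 15.0 and 17.1 CPM in CBE-KO. Its WT libraries spread the most, in proportion, among the 8 genes, without reaching the CBE-KO values. The log2 change was 1.13 ± 0.17 (SE, edgeR adjusted p = 4.83e-05), and it ranged from 0.84 to 1.46 when single libraries were left out, always called. Cdon (ENSMUSG00000038119), a close relative of Boc, was at 28 and 28.5 CPM in WT and at 35.8 and 35.1 CPM in CBE-KO. Replicates were close together and the groups did not overlap. Its log2 change of 0.33 ± 0.08 (SE, edgeR adjusted p = 0.00332) was the smallest rise of the 7, and in DESeq2 it did not pass (0.32, adjusted p = 0.0521).

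The Gli factors changed in both directions. Gli1 (ENSMUSG00000025407), an activator and pathway target, was at 14.5 and 15.4 CPM in WT and at 26.4 and 25.9 CPM in CBE-KO. Groups were clearly separate, with a log2 change of 0.81 ± 0.10 (SE, edgeR adjusted p = 7.36e-06), a 1.75-fold rise. Gli3 (ENSMUSG00000021318) was at 7.67 and 7.85 CPM in WT and at 15.3 and 15.2 CPM in CBE-KO. Within each group its replicates were nearly equal, and the log2 change was 0.98 ± 0.14 (SE, edgeR adjusted p = 2.45e-05), a 1.97-fold rise.

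Gli2 (ENSMUSG00000048402) was the member that fell. It was at 69.7 and 70.9 CPM in WT and at 62.2 and 56.8 CPM in CBE-KO, so the groups were separate but close. The log2 change was -0.24 ± 0.06 (SE, edgeR adjusted p = 0.00628), 0.847 of the WT level. The fall did not pass with library totals alone (-0.14, edgeR adjusted p = 0.106), a scaling under which the median of all genes was 0.11 in place of 0.01, or without CBE-KO replicate 2 (-0.18, edgeR adjusted p = 0.115). Its sign was negative in all 11 alternatives.

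**Figure D2:**
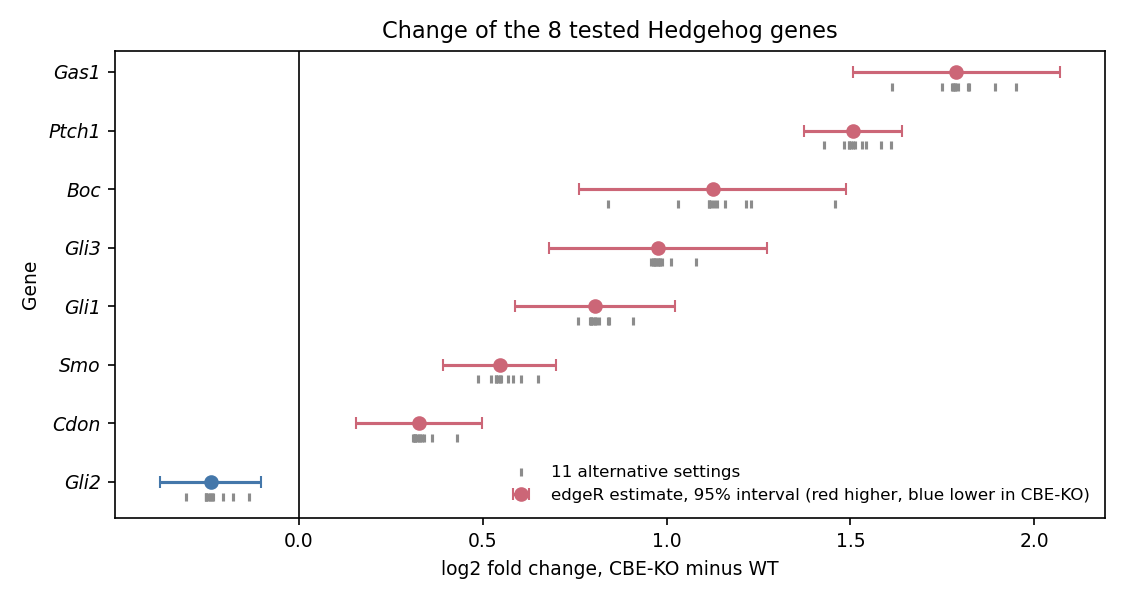
Log2 fold change (CBE-KO minus WT) of the 8 tested genes with 95% intervals, ordered by size, and below each point the values under 11 alternative settings as grey ticks. Gas1 at 1.79 and Ptch1 at 1.51 lead, and Gli2 at -0.24 is the gene whose interval lies below 0.

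Ordered by log2 fold change, the members ran Gas1, Ptch1, Boc, Gli3, Gli1, Smo, Cdon and Gli2. The 95% intervals of neighbours in this order overlapped in every case except Cdon (0.16 to 0.50) and Gli2 (-0.38 to -0.10). Some genes further apart were separate. The interval of Ptch1 (1.37 to 1.64) lay above that of Gli1 (0.59 to 1.02). That of Gas1 (1.51 to 2.07) lay above that of Boc (0.76 to 1.49). Others still overlapped, as Boc did with Gli1, and Gli3 (0.68 to 1.27) with Smo (0.39 to 0.70). A larger absolute log2 fold change than that of Gas1 was seen for 441 tested genes (2.76%), than that of Ptch1 for 692 (4.32%), and than that of Gli2 for 8840 (55.2%). The median absolute log2 fold change of all called genes was 0.46, above those of Cdon and Gli2 and below those of the other 6.

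Ratios of raw counts within a library need no scaling between libraries. The pairs were chosen after the levels had been seen. Ptch1 to Smo was 1.03 and 1.25 in WT and 2.20 and 2.21 in CBE-KO, so the receptor gained on the transducer by a factor of 1.94. Gli3 to Gli2 was 0.110 and 0.111 in WT and 0.247 and 0.267 in the CBE-KO libraries, a 2.33-fold difference. Gli1 to Gli2 went from 0.208 and 0.217 to 0.424 and 0.456, a 2.07-fold difference. Among the coreceptors, Gas1 to Cdon went from 0.288 and 0.298 to 0.709 and 0.914, a 2.74-fold difference. Boc to Cdon went from 0.208 and 0.314 to 0.420 and 0.488, a 1.77-fold difference. The groups did not overlap for any of the 5 ratios, and each had an exact two-sided permutation p of 0.333, the smallest that 2 libraries against 2 allow. Since genes differ in length, the ratios compare groups and not the amounts of the paired transcripts.

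**Figure D3:**
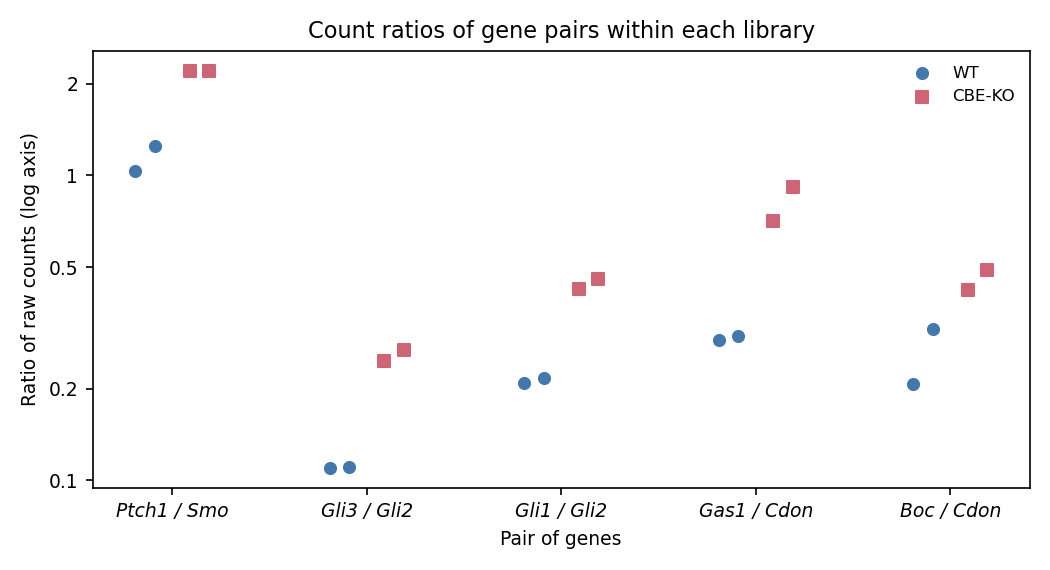
Ratios of raw counts between pairs of Hedgehog genes in each library, on a log axis, with WT as circles and CBE-KO as squares. For each of the 5 pairs both CBE-KO libraries lie above both WT libraries, for instance at 0.247 and 0.267 against 0.110 and 0.111 for Gli3 to Gli2.

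The wider pathway was followed in 43 further genes, all of which were tested: 7 for ligands and their release, 4 other receptors, 15 transducers and 17 genes of Gli processing. Of these, 19 passed (17 higher and 2 lower), 12 in DESeq2, and with library totals alone 24 were higher and 1 lower. The median log2 change was 0.19. The share called, 19 of 43, was near the background of 43.1% given above.

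Among genes of ligand production and release, 2 of 7 rose and 1 fell, beside 43.1% of all tested genes called. The 2 that rose, Scube2 and Dhh, entered the test through CBE-KO alone. Scube2, whose product helps to release lipid-bearing ligand from cells, had 7 and 5 counts in the WT libraries against 32 and 36 in CBE-KO, with a log2 change of 2.37 ± 0.43 (SE, edgeR adjusted p = 0.000256). Dhh, the third Hedgehog ligand, had 5 and 4 counts in the WT libraries against 21 and 14 in CBE-KO cells (log2 change 1.81 ± 0.53, SE, edgeR adjusted p = 0.0108). Dhh did not pass in DESeq2 (adjusted p = 0.110) or when WT replicate 1, WT replicate 2 or CBE-KO replicate 1 was left out (edgeR adjusted p = 0.0577, 0.0784 and 0.143). Scube3, of the same family as Scube2, fell by 0.31 on the log2 scale, from 92.5 to 74.6 CPM. Hhat, which attaches palmitate to the ligand, and Disp1, which exports it, had log2 fold changes of 0.22 and 0.05 that did not pass.

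Other receptor-level genes were called higher as well. Hhip, a membrane protein that sequesters ligand and a pathway target, had 65 and 48 counts in the WT libraries against 215 and 220 in CBE-KO. Its groups were far apart, with a log2 change of 1.83 ± 0.18 (SE, edgeR adjusted p = 2.51e-07). Gpc3, a glypican that competes for ligand, rose by 0.49 ± 0.08, and Lrp2, a large receptor that binds Shh, by 0.40 ± 0.07 (log2, SE).

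Of 15 transducers, 6 rose and none fell, beside 43.1% of all tested genes called. Gpr161, a ciliary receptor that restrains the pathway through protein kinase A, had 60 and 40 counts in the WT libraries against 153 and 133 in CBE-KO cells (log2 change 1.40 ± 0.20, SE, edgeR adjusted p = 2.64e-05). Evc and Evc2, partner proteins that work with Smoothened at the base of the cilium, rose by 0.90 ± 0.11 and 0.42 ± 0.11 (log2, SE), and Evc2 did not pass in DESeq2 (adjusted p = 0.0596) or without WT replicate 2 (edgeR adjusted p = 0.0648). Grk3, a receptor kinase, had a log2 change of 0.34 and missed the threshold in DESeq2 (adjusted p = 0.164) or without WT replicate 1, WT replicate 2 or CBE-KO replicate 1 (edgeR adjusted p = 0.0804, 0.0735 and 0.100). Sufu, which holds Gli proteins in the cytoplasm, had a log2 change of 0.11, and Kif7, a ciliary kinesin that organises Gli proteins, of 0.14. Neither passed (edgeR adjusted p = 0.306 and 0.217). The number of the 15 transducers called higher moved to 12 with library totals alone and to 3 in DESeq2.

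In Gli processing, 5 of 17 genes rose and 1 fell, Cul1, a ligase subunit, beside 43.1% of all tested genes called. In DESeq2 3 of the 17 were higher and 1 lower. The median log2 change was -0.05, and 0.06 with library totals alone. Inpp5e, a phosphatase of the ciliary membrane, rose by 0.47 ± 0.13, and Tulp3, which carries receptors such as Gpr161 into the cilium, by 0.32 ± 0.06 (log2, SE). Prkaca and Prkacb, catalytic subunits of protein kinase A, which marks Gli proteins for cleavage, had log2 fold changes of 0.34 ± 0.06 and 0.21 ± 0.07 (SE). Prkacb did not pass in DESeq2 (adjusted p = 0.170) or without WT replicate 2 or CBE-KO replicate 1 (edgeR adjusted p = 0.0610 and 0.190). The kinase and ligase genes Gsk3b, Csnk1a1 and Btrc, of the same step, did not pass, with log2 fold changes of 0.05, -0.05 and -0.02. Of their close relatives in the list, Csnk1e was called higher (0.19, edgeR adjusted p = 0.00955). Csnk1d, Gsk3a and Fbxw11 were not called (-0.09, -0.09 and -0.12).

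**Figure D4:**
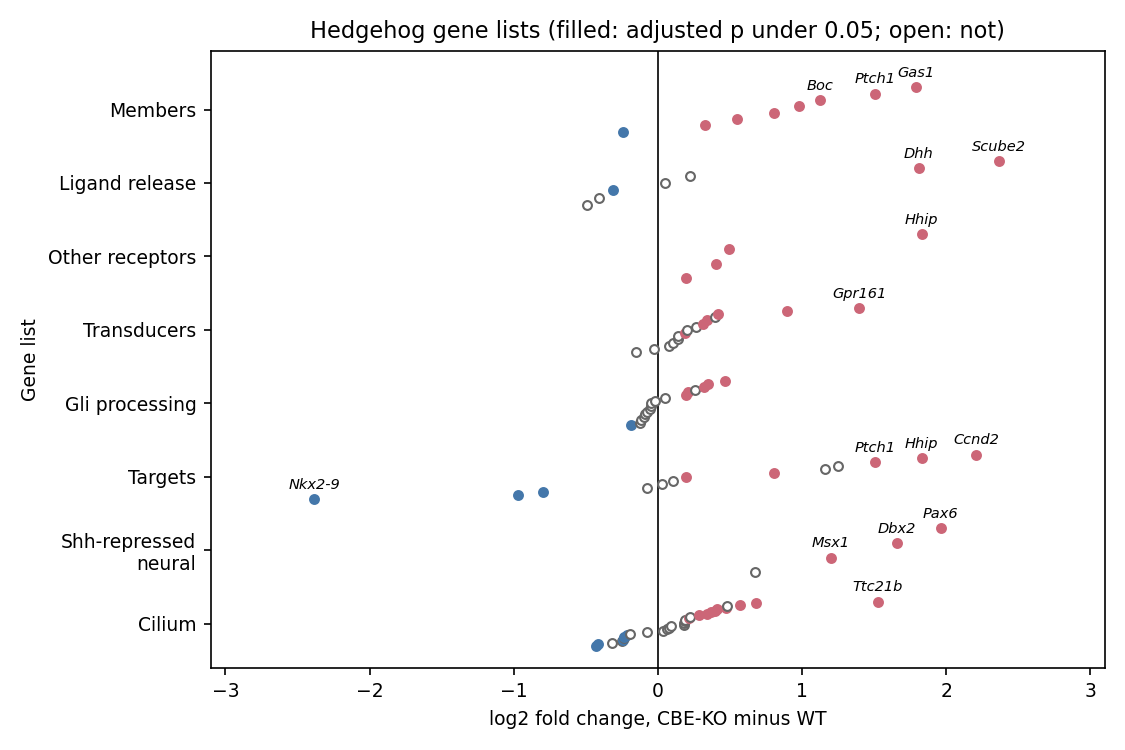
Log2 fold change (CBE-KO minus WT) of each tested gene in the 10-gene set (Members) and in 7 related lists, with red and blue points called higher and lower and open points not called. The targets row repeats Ptch1 and Gli1, and the Gli processing genes have a median of -0.05 (0.06 with library totals alone) beside the members' 0.89.

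Genes known to be induced by the pathway in other tissues did not move as 1 group. Apart from Ptch1 and Gli1, 11 of 16 were tested, with 3 higher, 3 lower and a median log2 change of 0.11. Of all tested genes, 21.6% were higher and 21.5% lower. Nkx2-9, 1 of the 3 lower targets, entered the test through WT alone, so the filter favoured a fall for it. Hhip, given above, was among those called higher, as was Ccnd2, a D-type cyclin. Ccnd2 had 201 and 159 counts in the WT libraries against 957 and 846 in CBE-KO, a log2 change of 2.21 ± 0.09 (SE, edgeR adjusted p = 6.45e-12). Its relative Ccnd1 fell by 0.80 on the log2 scale, from 34.5 to 19.8 CPM, and Mycn, a growth regulator, fell by 0.97, from 28.5 to 14.5 CPM. Nkx2-9, a homeobox gene of the ventral neural tube, had 20 and 10 counts in the WT libraries against 2 and 4 in CBE-KO cells (log2 change -2.38 ± 0.64, SE, edgeR adjusted p = 0.00577), and missed the threshold in DESeq2 (adjusted p = 0.0540) or without WT replicate 1 or CBE-KO replicate 1 (edgeR adjusted p = 0.173 and 0.0824).

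Several ventral neural genes among the pathway's targets were scarcely present. Nkx2-2 had 0 and 0 counts in the WT libraries against 11 and 4 in CBE-KO, Olig2 had 0 and 0 against 1 and 4, and Nkx6-1 had at most 1 count in any library. None of these 3 entered the test. Foxa2, the floor plate regulator, had 16 and 14 counts in the WT libraries against 21 and 10 in CBE-KO, with overlapping groups. Nkx6-2, of the same list, had 25 and 24 counts in WT against 22 and 32 in CBE-KO, also overlapping, and did not pass (log2 change 0.03). Of 7 neural genes that Shh restricts to intermediate or dorsal positions, 4 were tested and 3 were called, all higher, beside 43.1% of all tested genes called. They were Pax6 (log2 fold change 1.96 ± 0.37, SE), Dbx2 (1.66 ± 0.57) and Msx1 (1.20 ± 0.24). Pax6 and Dbx2 entered the test through CBE-KO alone, so the filter favoured a rise for them. Pax7, which was not tested, had 13 and 5 counts in WT against 7 and 1 in CBE-KO. Dbx2 had only 4 and 4 counts in WT and missed the threshold in DESeq2 (adjusted p = 0.193) or when any library was left out (edgeR adjusted p from 0.0877 to 0.191).

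Genes of the primary cilium, the organelle in which Smoothened acts, numbered 30, all tested, with 10 higher, 5 lower and a median of 0.18. This balance moved with the processing, to 14 higher and 2 lower with library totals alone and 7 higher and 2 lower in DESeq2, and the 15 called of 30 stand beside 43.1% of all tested genes. Ttc21b, an intraflagellar transport subunit known to restrain Hedgehog signalling, had 118 and 111 counts in the WT libraries against 387 and 330 in CBE-KO. The groups were far apart, with a log2 change of 1.53 ± 0.12 (SE, edgeR adjusted p = 3.31e-08). Ift57, Dync2li1 and Ift140, further transport proteins, had log2 fold changes of 0.68, 0.57 and 0.47, and Dync2li1 did not pass in DESeq2 (adjusted p = 0.0793) or without CBE-KO replicate 2 (edgeR adjusted p = 0.178). Ift88, often used as a core transport marker, averaged 10.99 CPM in the WT libraries against 9.38 CPM in CBE-KO, with overlapping groups, and did not pass (edgeR adjusted p = 0.267).

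Markers of cell types moved beside the Hedgehog genes, and their part in these results was not tested. The counts of markers called stand beside 43.1% of all tested genes called, 21.6% higher and 21.5% lower. Of 8 pluripotency markers, 6 were lower and 1, Nanog, higher in CBE-KO, and they summed to 4426 and 4598 CPM in WT and to 3398 and 3441 CPM in CBE-KO. The 4 largest changes among them were those of Utf1 (-1.67), Sall4 (-0.94), Klf4 (-0.49) and Zfp42 (-0.42), on the log2 scale. Of 6 neural progenitor markers, 5 were tested and 4 were higher. The 6 summed to 35.3 and 36.0 CPM in WT and to 63.0 and 63.8 CPM in CBE-KO. Hes5, which was not tested, had 0 and 0 counts in WT against 1 and 2 in CBE-KO, all below the floor of 3. Zfp521 had the largest log2 fold change of the neural progenitor markers (3.59), followed by Pax6, Sox3 (1.44) and Sox1 (0.58). Zfp521 and Pax6 entered the test through CBE-KO alone. Nes, the remaining tested marker, averaged 13.7 CPM in the WT libraries against 10.99 CPM in CBE-KO, without overlap, and did not pass (log2 change -0.31, edgeR adjusted p = 0.0687).

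Markers of other lineages were also summed, and their counts called stand beside the same 43.1% of all tested genes. Extraembryonic endoderm markers summed to 87.6 CPM in each WT library and to 98.7 and 101 CPM in CBE-KO, with Sox7 (log2 fold change 0.81), Dab2 (0.77) and Gata4 (0.72) called higher among 7 tested of 9, and with Ttr at 0 counts in 3 of 4 libraries. Dab2 did not pass in DESeq2 (adjusted p = 0.0548) or without CBE-KO replicate 1 (edgeR adjusted p = 0.0816). Floor plate and notochord markers, from tissues that secrete Shh in the embryo, summed to 44.4 and 44.9 CPM in WT and to 37.3 and 38.9 CPM in CBE-KO, with 7 of 8 tested. Chrd rose (1.23), Foxj1 (-0.82) and Ntn1 (-0.36) were lower, and Noto had 0 counts in 3 of 4 libraries. Foxj1 did not pass in DESeq2 (adjusted p = 0.0734) or without CBE-KO replicate 1 (edgeR adjusted p = 0.0526). Of 7 fibroblast markers, Postn, Dcn and Lum were at 0 in every library, and Col1a1 was higher by 0.88, with sums of 11.4 and 12.9 CPM in WT and 14.8 and 17.6 CPM in CBE-KO. Mesoderm markers summed to 5.34 and 5.96 CPM in WT and to 6.22 and 7.77 CPM in CBE-KO. Kdr, the 1 called of 4 tested, had 6 and 6 counts in the WT libraries against 15 and 22 in CBE-KO. Kdr entered the test through CBE-KO alone. It did not pass in DESeq2 (adjusted p = 0.163) or without WT replicate 1, WT replicate 2 or CBE-KO replicate 2 (edgeR adjusted p = 0.115, 0.0908 and 0.287). Trophoblast markers summed to 18.03 and 18.9 CPM in WT and to 18.2 and 18.4 CPM in CBE-KO.

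The members lie on 7 chromosomes (GRCm38), and 3 of the 7 that rose share chromosome 13: Gli3 at chr13:15463723-15730026, Gas1 at chr13:60174405-60177535 and Ptch1 at chr13:63508328-63573460. On that chromosome 44.0% of 555 tested genes were called, 26.7% higher, and the median log2 change was 0.08. Within 1 Mb of Ptch1, 3 of 17 tested neighbours were higher and 1 lower, with a median of 0.13. Around Gas1 it was 1 higher and 1 lower of 9 (median -0.02), and around Gli3 none higher and 2 lower of 4 (median -0.19). Boc, at chr16:44485045-44558870, had 1 higher and 3 lower neighbours of 14 (median -0.08). Ptch1, Gas1, Gli3 and Boc have the 4 largest rises of the set, so their lying above these medians was given in advance. A regional part in the rises was not tested. Chromosome 1, which holds Gli2 at chr1:118834061-119054405 and Ihh at chr1:74945315-74951672, had the highest median of the 7, 0.12, although Gli2 fell. Smo lies at chr6:29735497-29761366, Gli1 at chr10:127329882-127341579, Cdon at chr9:35421528-35507652 and Shh at chr5:28456840-28467101, on chromosomes with medians of 0.03, 0.04, 0.04 and -0.02. Around Smo, 11 of 26 tested neighbours within 1 Mb were higher and 3 lower (median 0.15). Around Gli1 it was 18 higher and 11 lower of 57 (0.12), and around Shh 5 higher and 1 lower of 11 (0.32). Cdon had 2 higher and 2 lower neighbours of 11 (-0.01). Gli2 had 3 and 4 of 10 (0.04), and Ihh 6 and 9 of 42 (-0.06).

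The profile of Gas1, the member with the largest change, was compared with those of 14617 genes over the 4 libraries, as the root mean square difference of log2 CPM centred on each gene's mean. The closest were Rnf182 (0.044), a ubiquitin ligase gene, Clic6 (0.053), of the chloride intracellular channel family, and Tnfrsf13b (0.054), a receptor gene of the tumour necrosis factor family. They were picked for this likeness, so their changes were not tested further. Their counts were low, at 7 to 11 per WT library and 26 to 41 per CBE-KO library.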

How the data were processed

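RNA-seq counts per gene were analysed for 2 WT and 2 CBE-KO libraries, grouped and numbered by their titles. The authors deposited whole-number read counts per Ensembl identifier, 1 table per library, not normalized. The submitters' processing notes name HISAT2 2.1.0, HTSeq 0.9.1, DESeq2 1.18.1, Bowtie2 2.3.1 and the build mm10, with no roles. Use of strand and the annotation release are not given in the sources used here, so overlapping and antisense genes cannot be told apart. Symbols matched 52403 of 52636 identifiers.

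Genes passing edgeR's filterByExpr (16005) were scaled by TMM and tested with glmQLFit and glmQLFTest (edgeR 4.0.16, R 4.3.3), two-sided, without covariates, with Benjamini-Hochberg adjustment over all tested genes and a threshold of 0.05. SE is the absolute log2 fold change over the square root of the quasi-likelihood F, and intervals are 95%. The design text calls replicates biological. Counting intervals treat reads as independent, which reads without molecular identifiers are not.

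The members and lists were chosen with earlier results of these data known. Named are all members, the 4 largest called changes of each list, and the 3 nearest profiles of the top member; others were named for their roles, some after their values were seen. A listed gene that the rule names is not reported here. Alternatives were DESeq2 1.42.0, 3 other scalings, 2 other filters, the replicate block, a threshold of 0.01 and leaving out each library. Scripts were tested on simulated data. Levels are not compared between genes, since exon lengths were not used here. RefSeq positions and promoters were matched by symbol.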

Additional observations from a re-analysis of the deposited data

How the results depend on the processing

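DESeq2 called 4577 of all genes in place of 6895, and 12 of the 43 wider pathway genes in place of 19. The cause was not tested. Some smaller lists also moved by more than 1.5 times. With library totals alone, 12 transducers in place of 6 were higher and 2 cilium genes in place of 5 were lower. At an adjusted p below 0.01 likewise 2 cilium genes were lower. In DESeq2, 3 transducers in place of 6 and 3 Gli processing genes in place of 5 were higher, and 2 cilium genes were lower. The number of Hedgehog members called was 8, or 7 with DESeq2 (without Cdon), with library totals alone and without CBE-KO replicate 2 (both without Gli2). A fit with a replicate block called 7027 genes, with the same 8 members among them. Replicate numbers are not said to pair libraries. Over tested genes, the deviations of WT and CBE-KO replicate 1 from their group means were only weakly correlated (0.024). With 2 libraries per group, those of replicate 2 are the same with the sign turned. No member's log2 fold change turned its sign, but genes near 0 did: with library totals alone 14 of 17 Gli processing genes were positive in place of 7. Leaving out a library leaves 1 in its group, which is then assumed to vary like the other group. At these depths Shh and Ihh could not be measured beyond a few counts.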
